A study of Arabidopsis thaliana with 6 samples.

Results

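The genes described here encode leucine-rich repeat receptor-like kinases of subfamily I (LRR-I). They were taken as a fixed list of 40 loci, and a gene counts as measured where a probe set on the array was mapped to it alone. That held for 33 of the 40, each with 1 probe set, among 13286 genes measured in all. Of the other 7, AT2G14440 and AT2G14510 share 1 probe set, and *IOS1*, *RHS6*, *MEE39*, *RHS16* and AT5G16900 were not analysed here. *Arabidopsis thaliana* plants of ecotype Columbia, either wild type (WT) or carrying 35S::CLE41, were compared by the transcripts of their inflorescence stems. In 35S::CLE41 a viral promoter active in most tissues drives *CLE41*, the gene of the secreted peptide TDIF, so the peptide gene is not limited to the phloem where it is normally active. Plants were 5 weeks old, grown with 16 h light and 8 h dark, and the sample was the lower part of the stem without the 1 cm next to the rosette. Each genotype had 3 samples with 1 array each. How many transgenic lines or plants entered a sample is not given in the labels, so the spread behind each p-value is that between these arrays and may be technical.

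An LRR-I kinase carries a malectin-like domain and a few leucine-rich repeats outside the cell, a membrane span, and a kinase domain inside. The subfamily is known mostly from immunity: *FRK1* is a widely used reporter of the response to bacterial flagellin, and *IOS1* acts with pattern receptors and affects infection by downy mildew. Many of the genes lie in tandem arrays, and several were named from root hairs (*RHS6*, *RHS16*). The TDIF receptor PXY is also a leucine-rich repeat kinase, but of another subfamily.

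As a check of the labels, *CLE41* had log2 intensities of 9.68, 9.42 and 9.98 in the WT arrays and 11.27, 11.73 and 11.38 in the 35S::CLE41 arrays. This is a difference of 1.77 (SE 0.18; limma adjusted p = 0.0013). Over the whole array 3364 of 22746 probe sets were called, meaning an adjusted p under 0.05, with 1803 higher and 1561 lower in 35S::CLE41; with all arrays shifted to 1 median the split was 1392 and 1975. WT replicate 2 stood apart: it lay at least 2-fold from the mean of the other WT arrays at 365 probe sets, where the other 5 arrays did so from their own group at 32 to 100. Marker genes of stem and other tissues are given as values only, since intensities of different probe sets cannot be set against each other and so do not test the stem label. The xylan genes *GUT2* and *IRX15* had mean log2 intensities of 10.21 and 9.87, and the photosynthesis genes *SBPASE*, *PRK* and *RCA* ran from 11.33 to 13.03. The root hair expansin genes *EXPA7* and *EXPA18* had 4.73 and 4.76. No listed floral organ or senescence marker was measured.

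Most LRR-I genes were dim in the stem of either genotype, and 1 gene, AT5G48740, rose about 2-fold in 35S::CLE41. It was the 1 member of 33 that passed an adjusted p of 0.05, or 3.03% of members, where 14.8% of all probe sets passed (7.93% higher and 6.86% lower). None fell by limma, and none was lower at an unadjusted p under 0.05 either. AT5G59670, AT4G29990 and AT1G51805 lay higher on average in 35S::CLE41 at unadjusted p under 0.05, and did not pass after adjustment. The share of all probe sets under that unadjusted cut was not counted, so no tendency of the members is read from it. In RNA from whole stem pieces, a change in the number of cells of a type and a change in RNA per cell cannot be told apart.

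The intensity of a probe set depends on how well its probes bind as well as on the transcript, so levels are given here as places in the range of the array and not as abundances. Of the 33 genes, 31 lay in the dimmest 40% of probe sets, below a mean log2 intensity of 5.67. The mean over the 6 arrays was under 4 for 14 members, between 4 and 5 for 16 and at 5 or more for 3. The lowest was AT2G04300 at 3.47, the median over members 4.07, and the highest AT1G51805 at 8.18. The table as a whole ran from 3.04 to 14.23.

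This place in the range bears on how many calls could be made. Of probe sets in the dimmest 40%, 4.21% were called, against 21.8% of the brighter ones. Between 3.5 and 4 on the log2 scale, where 13 members lay, 3 of 2422 probe sets were called (0.124%). Between 4 and 4.5, with 10 members, the share was 1.27%, and from 4.5 to 5, with 6 members, 5.64%. For the dim members the count is therefore to be read against a low share for probe sets of like intensity. Values this close to the lowest of the table can also understate a change in transcript. The called member, AT5G48740, lay between 6.5 and 7, where 21.4% of probe sets were called. AT1G51805 lay between 8 and 8.5, where the share was 20.8%.

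**Figure D1:**
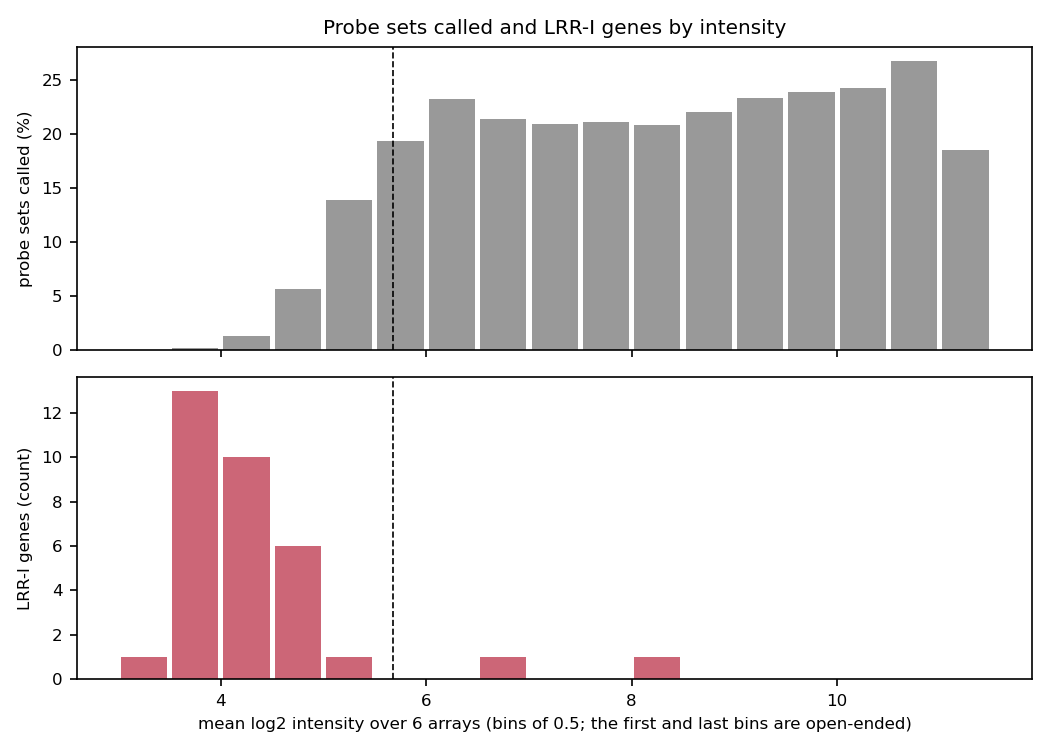
Share of all probe sets called at an adjusted p of 0.05 (top, percent) and number of LRR-I genes (bottom, count) by mean log2 intensity over the 6 arrays, in bins of 0.5. The dashed line at 5.67 is the upper end of the dimmest 40%; 31 of 33 LRR-I genes are to its left, where few probe sets were called.

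AT5G48740 was the member with the clearest difference. Its log2 intensities were 6.37, 6.22 and 6.33 in WT and 7.42, 7.14 and 7.39 in 35S::CLE41. Each 35S::CLE41 array lay above each WT array, and the gap between the groups was wider than the spread within either. The means were 6.31 ± 0.08 and 7.32 ± 0.15 (SD, n = 3 each), a rise of 1.01 (SE 0.11), or 2.01-fold, with a 95% interval of 0.75 to 1.26 (limma adjusted p = 0.00167). The rise was 0.96 to 1.09 when each array was left out in turn, with an adjusted p of at most 0.0104, and 0.97 without WT replicate 2. It is 1 of 10 listed loci with no other member near it on the chromosome.

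AT5G59670 had the largest difference in size but a wide spread. Its log2 intensities were 5.52, 4.36 and 4.73 in WT and 5.83, 5.56 and 6.50 in 35S::CLE41. The groups did not overlap, but WT replicate 1 and 35S::CLE41 replicate 2 almost met. The difference was 1.09 (SE 0.33; 95% interval 0.33 to 1.85; adjusted p = 0.0633), and the SD within WT was 0.60. WT replicate 2 was the lowest array, differing by -0.77 from the other WT arrays, and without it the difference was 0.84 (adjusted p = 0.125). Without WT replicate 1, the highest WT array, it was 1.42 and passed (adjusted p = 0.0258). Both genotype means lie in or near the dim range, so the size is uncertain.

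AT4G29990 had WT values of 4.56, 4.52 and 4.52, the narrowest WT spread of the genes described singly (SD 0.02, n = 3). The 35S::CLE41 arrays gave 4.91, 5.17 and 4.78, all above WT and more scattered. The difference was 0.42 (SE 0.12; 95% interval 0.14 to 0.70; adjusted p = 0.0529), just short of the threshold. It passed with quantile normalization applied again (adjusted p = 0.0346), with array weights (0.0442) and with trended, robust eBayes (0.0396). It passed in none of the fits without a single array, where the adjusted p ran from 0.0539 to 0.124. Its intensity lies in the dim range, so the size of the difference is uncertain.

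AT1G51805 was the brightest member, with 8.29, 7.76 and 7.90 in WT and 8.37, 8.50 and 8.27 in 35S::CLE41. WT replicate 1 lay just above 35S::CLE41 replicate 3, so the groups overlapped. The difference was 0.40 (SE 0.15; 95% interval 0.05 to 0.74; adjusted p = 0.118). It passed without WT replicate 1, at 0.55 (adjusted p = 0.0368), and was 0.29 without WT replicate 2, the lowest WT array (adjusted p = 0.26).

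**Figure D2:**
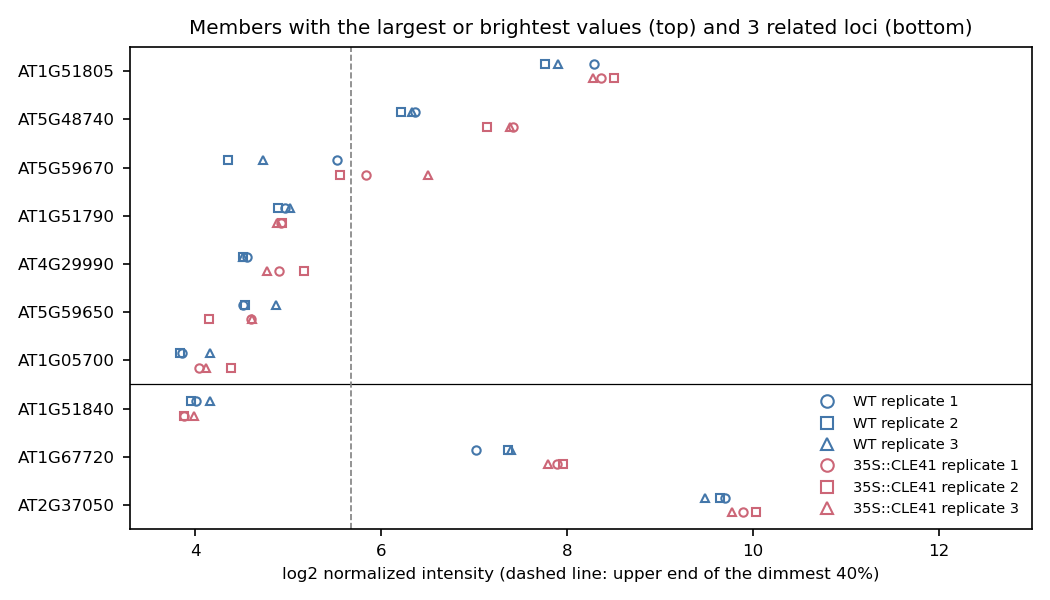
Log2 normalized intensity on each array for the 7 LRR-I genes with the largest differences or brightest values (above the line) and for 3 related loci outside the list (below the line). Blue is WT and red 35S::CLE41, marker shape gives the replicate number, and the dashed line marks 5.67; the WT and 35S::CLE41 points of AT5G48740 are clearly apart, while those of AT5G59670 almost meet.

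The other 29 members stayed within a narrow band. All their array values lay between 3.36 and 5.02, and the SD of a gene over the 6 arrays ran from 0.05 to 0.23. Differences ran from -0.19 for AT5G59650 to 0.23 for AT1G05700, and the smallest adjusted p was 0.323. AT1G05700 had 3.86, 3.84 and 4.16 in WT and 4.05, 4.38 and 4.11 in 35S::CLE41, with overlapping groups (95% interval -0.085 to 0.54). AT5G59650 had 4.52, 4.54 and 4.87 in WT and 4.60, 4.15 and 4.61 in 35S::CLE41, also overlapping (95% interval -0.56 to 0.18). AT1G51790, which followed AT5G59670 in brightness, had 4.97, 4.90 and 5.02 in WT and 4.92, 4.94 and 4.88 in 35S::CLE41. Its difference was -0.049 (95% interval -0.26 to 0.16). For 31 of the 33 members the 95% interval lay within a 2-fold change either way on this intensity scale. The exceptions were AT5G48740 and AT5G59670, which are also the 2 members with a difference over 1, where 4.65% of all probe sets had one.

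**Figure D3:**
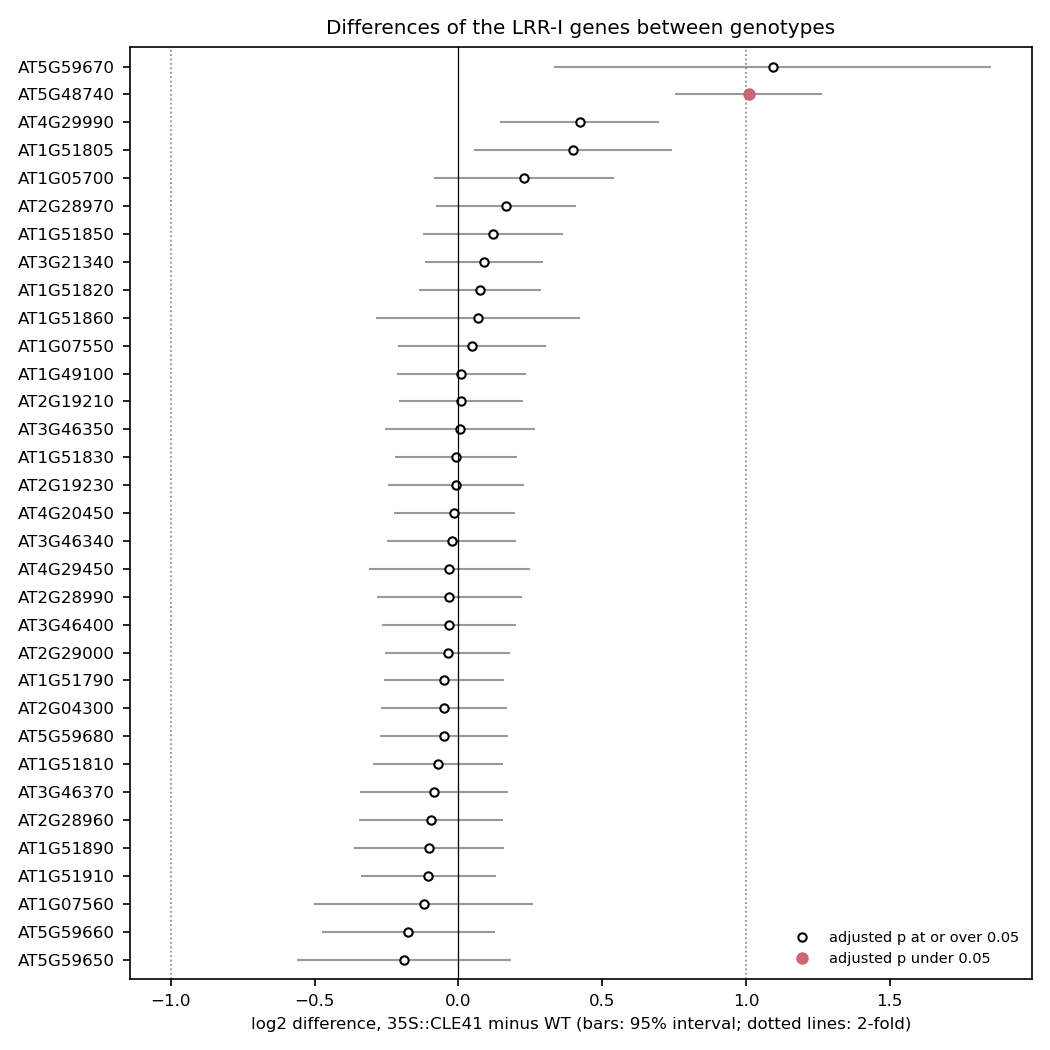
Log2 difference between 35S::CLE41 and WT for each of the 33 LRR-I genes, ordered by size, with 95% intervals from the limma fit. The dotted lines mark a 2-fold change; the intervals of AT5G59670 and AT5G48740 reach past it, and AT5G48740 (filled point) is the 1 gene with an adjusted p under 0.05.

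Differences of the members lay on both sides of 0. The difference was above 0 for 14 members and below 0 for 19, and its median was -0.014, against 0.0020 over all probe sets, of which 50.4% were above 0. With arrays shifted to 1 median the counts were 8 and 25 and the median -0.093, where the median of all probe sets was -0.077. The direction of 16 members changed under at least 1 of 12 alternative settings, so a sign is not read for them. The median size of the difference was 0.071 for members, 0.165 over all probe sets and 0.086 over the dimmest 40%. The groups did not overlap for 4 members, all higher in 35S::CLE41, which is 12.1% of members against 34.5% of all probe sets and 18.6% of the dimmest 40%. These were AT5G48740, AT5G59670, AT4G29990 and AT3G21340. AT3G21340 had 3.57, 3.66 and 3.63 in WT and 3.72, 3.74 and 3.66 in 35S::CLE41, near the low end of the table, where the highest WT and the lowest 35S::CLE41 value are equal as rounded, with a difference of 0.089 (adjusted p = 0.589).

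WT replicate 2 lay apart by more than 0.5 for 2 members. These were AT5G59670, given above, and AT1G07560, with WT values of 4.38, 4.94 and 4.45. In AT1G07560 the array was the high one, and the 35S::CLE41 values of 4.45, 4.63 and 4.32 overlapped the WT values. Among the 33 members WT replicate 2 was the lowest WT array for 12 and the highest for 12.

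**Figure D4:**
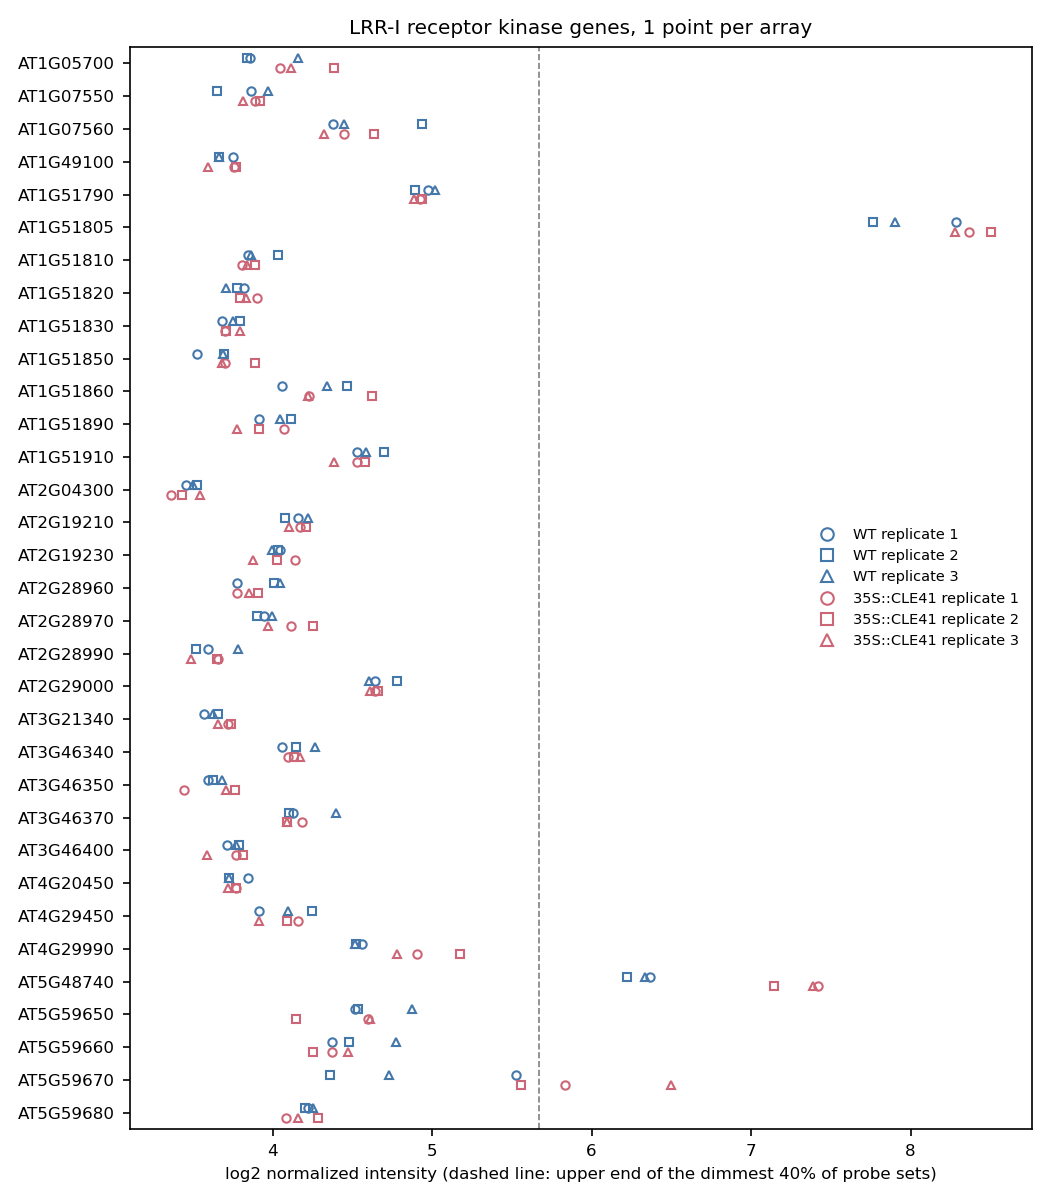
Log2 normalized intensity of the 33 measured LRR-I genes on each of the 6 arrays, in order of locus. Blue is WT and red 35S::CLE41, marker shape gives the replicate number, and the dashed line marks 5.67; most genes lie between 3.36 and 5.02 in both genotypes.

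Position on the chromosome was described next, since 30 of the 40 loci lie in 7 runs of neighbouring members, taking at most 10 gene positions from one to the next. The longest run, on chromosome 1 from AT1G51790 to AT1G51910, holds 11 members, of which 9 were measured. Its differences ran from -0.10 to 0.40. AT1G51805 was the bright gene of this run, and the other 8 had array values between 3.53 and 5.02 and differences between -0.10 and 0.12.

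The run from AT5G59650 to AT5G59680 on chromosome 5 had all 4 members measured. AT5G59670 was the 1 with a positive difference. AT5G59650, AT5G59660 and AT5G59680 had differences between -0.19 and -0.050 and array values between 4.08 and 4.87. In the run from AT2G28960 to AT2G29000 on chromosome 2, 4 members had differences from -0.097 to 0.16. In the run from AT3G46330 to AT3G46400 on chromosome 3, 4 of 5 members were measured, with differences from -0.085 to 0.0058. The pairs AT1G07550 and AT1G07560, and AT2G19210 and AT2G19230, ran from -0.12 to 0.047 and from -0.0093 to 0.0082. No member had a probe set whose name marks it as shared between transcripts. Tandem copies can be alike in sequence, and whether a probe set also reads a neighbour was not tested.

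Outside the list, 3 of 8 further loci of the subfamily were measured, chosen from general knowledge of the family, and 1 rose. AT1G67720 had 7.03, 7.36 and 7.40 in WT and 7.89, 7.96 and 7.80 in 35S::CLE41, with no overlap. The rise was 0.62 (SE 0.12; adjusted p = 0.0161). Leaving out 35S::CLE41 replicate 1 or 2 ended the call (adjusted p = 0.0561 and 0.062). AT2G37050, the brightest of these probe sets, differed by 0.29 (SE 0.11; adjusted p = 0.127), and AT1G51840, in the chromosome 1 run, by -0.13 (adjusted p = 0.448). *FRK1* was not analysed here.

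The CrRLK1L kinases are the other large family with malectin-like domains, and act in cell wall sensing and in fertilisation. Of 17 listed 12 were measured, 2 rose and 2 fell, or 33.3% called. Over all probe sets 14.8% were called, with 21.8% of the brighter ones and 4.21% of the dimmest 40%. *THE1*, a sensor of cell wall integrity, fell by 1.12 (SE 0.12; adjusted p = 0.00178), from 9.60, 9.85 and 9.46 in WT to 8.43, 8.49 and 8.62. It was called without each array in turn (adjusted p at most 0.0127). AT5G24010 fell by 0.43 (adjusted p = 0.0222), which missed the threshold when WT replicate 3 or 35S::CLE41 replicate 1 or 2 was left out (0.0801 at most) and with trended, robust eBayes (0.054). AT5G59700, close to the chromosome 5 run of LRR-I genes by locus number, rose by 0.67 (SE 0.14; adjusted p = 0.0193). It missed the threshold when 35S::CLE41 replicate 1 or 3 was left out (0.0711 at most). AT5G39020 rose by 0.64 (adjusted p = 0.042), which of the 6 fits that leave out 1 array passed only without WT replicate 1 (otherwise 0.129 at most) and missed the threshold under either other scaling and with array weights (0.0513 to 0.0619). *FER*, a receptor of RALF peptides, was bright in both genotypes (10.67 and 10.75) and differed by 0.078 (adjusted p = 0.713). In this family 6 of 12 probe sets lay above 5.67, against 2 of 33 LRR-I genes. The genes that fell, *THE1* and AT5G24010, lay above it. The genes that rose lay below it, with means of 5.48 (AT5G59700) and 5.60 (AT5G39020), so the sizes of their rises are uncertain. Whether the families differ in their share of calls was not tested.

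**Figure D5:**
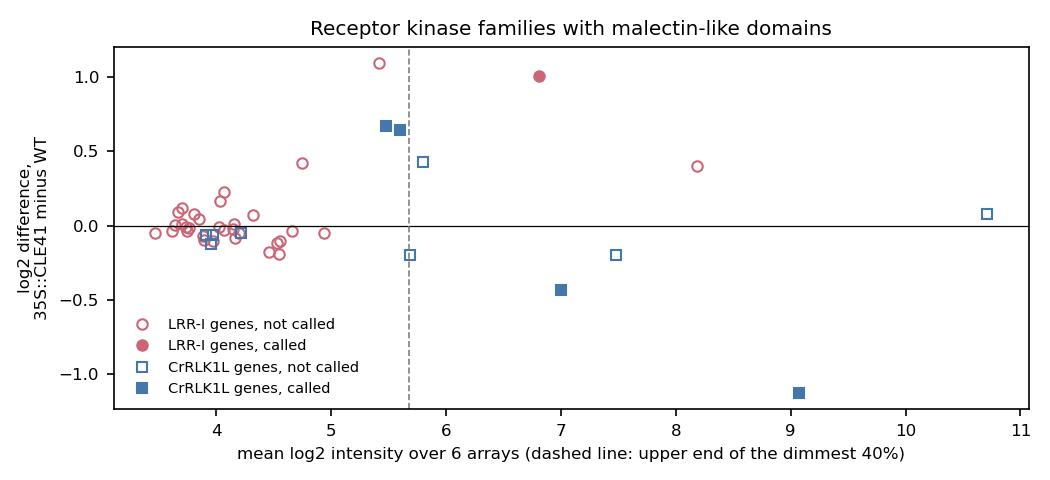
Log2 difference between 35S::CLE41 and WT against mean log2 intensity for the 33 LRR-I genes (red circles) and 12 CrRLK1L genes (blue squares), filled where the adjusted p was under 0.05. The dashed line marks 5.67; 31 LRR-I genes and 6 CrRLK1L genes lie left of it, and *THE1* is the square at the lower right.

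Other listed genes of immunity were thinly covered. Of 13 listed pattern receptors and co-receptors 1 was measured: *EFR*, the receptor for bacterial elongation factor Tu, fell by 0.51 (SE 0.11; adjusted p = 0.0185). Leaving out any 1 of the 35S::CLE41 arrays ended that call (0.0653 at most). The mean log2 intensity of *EFR*, 5.33, lies in the dim range, so the size of its fall is uncertain. Of 23 immune signalling genes 5 were measured, of which 2 rose and none fell. Over all probe sets 14.8% were called, and 21.8% of the brighter ones, and 5 genes are too few for a share to be read. *BIK1*, a cytoplasmic kinase downstream of pattern receptors, had 7.05, 6.67 and 6.54 in WT and 7.28, 7.59 and 7.38 in 35S::CLE41. It rose by 0.67 (adjusted p = 0.0258), and of the 6 fits that leave out 1 array passed only without WT replicate 1 (otherwise 0.0914 at most). *PUB24*, an E3 ligase gene whose product dampens pattern-triggered responses, rose by 1.04 (SE 0.19; adjusted p = 0.0124), or 2.05-fold. Leaving out 35S::CLE41 replicate 2 put it just over the threshold (adjusted p = 0.0539). Its partners *PUB22* and *PUB23* differed by -0.22 and -0.33, neither called. *PUB23* passed as lower with arrays shifted to 1 median (adjusted p = 0.0358), with quantile normalization applied again (0.0441) and with array weights (0.0408).

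Of 14 immune response genes 3 were measured and 2, *WRKY53* and *STZ*, rose, by 1.54 (limma adjusted p = 0.0187) and 1.72 (0.0206). Here too 14.8% of all probe sets and 21.8% of the brighter ones were called, and 3 genes are too few for a share to be read. Leaving out 35S::CLE41 replicate 2 ended the call of *WRKY53* (0.0723), and leaving out any 1 of the 35S::CLE41 arrays that of *STZ* (0.0734 at most). *STZ* had 7.03, 5.61 and 7.07 in WT, and without WT replicate 2 it rose by 1.24 (adjusted p = 0.00256). The other measured gene, *WRKY22*, differed by 0.0042 (adjusted p = 0.986). The summed intensity of the 3 genes was 98.1 to 195 in WT and 365 to 576 in 35S::CLE41. The low end is WT replicate 2, and both other WT arrays had 195. *STZ* made up the largest part of this sum, so the sum does not show a rise of all 3 genes. Among the tissue markers, *WSD1* and *SBPASE* were called in the fit reported, and the measured xylem, phloem and root hair genes were not. The 1 measured epidermal gene of 5, *WSD1*, fell by 3.08 (adjusted p = 0.000547). Of 5 photosynthesis genes 3 were measured and *SBPASE* fell by 0.66 (adjusted p = 0.0090). *PRK* and *RCA* differed by -0.34 and -0.18 (limma adjusted p = 0.125 and 0.512), neither called. The summed intensity of the 3 genes was 16716 to 19336 in WT and 13193 to 15356 in 35S::CLE41. *RCA* made up the largest part of this sum, so the sum does not show a fall of all 3 genes. Neither *GUT2* and *IRX15* (0.45 and 0.90) nor the phloem genes *OPS* and *SWEET11* (0.41 and 0.22) passed, although *OPS* did without WT replicate 2, at 0.71 (adjusted p = 0.0422). Without that array *GUT2* and *IRX15* differed by 0.13 and 0.40 and *SWEET11* by 0.067. The part of these tissues in the differences of AT5G48740 and AT5G59670 was not tested. The root hair genes *EXPA7* and *EXPA18* differed by -0.019 and -0.018, signs that flipped under other settings, and no table value was at 0.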

How the data were processed

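Stem RNA from Trizol was biotin-labelled in 2 cycles, per the labels' protocols. The authors deposited 1 linear intensity per probe set and array, from 8.21 to 19282. The values were taken as already normalized, with medians of 91.9 to 101 on the 6 arrays. On the log2 scale the medians were 6.52 to 6.59 in WT and 6.61 to 6.66 in 35S::CLE41. Each 35S::CLE41 median thus lay above each WT median, which bears on small differences and on counts of directions. RMA and limma are named in the submitters' processing notes without version or order; a genome build was not given in the sources used here. Values were converted to log2. No detection call, background or scan batch was used, and the number of arrays limits the precision.

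Probe sets were named from a platform table, updated through RefSeq (TAIR10.1): 13513 mapped to 1 gene (13436 found in RefSeq), 503 to several and 8730 were not listed. Per gene the probe set with the highest mean was used. Genotypes were compared per probe set by limma 3.58.1 under R 4.3.3 (lmFit, eBayes, two-sided), adjusting by Benjamini-Hochberg over all 22746 probe sets with a threshold of 0.05. The procedure was also run on simulated data with planted shifts of 1 or 2 log2 units, which does not test smaller differences. The simulated noise was independent between probe sets and arrays, so an array that stands apart was not tested. Its outcome is not given here and no result above rests on it. Members and lists were chosen with earlier results of these data known. Values per array are given for called members, the 5 brightest and the 5 uncalled with the largest differences; AT1G07560 and AT3G21340 were added after their values were seen. From each other list up to 4 called genes, or the 2 with the smallest p, were named. AT2G37050, AT1G51840, *FER*, *PUB22*, *PUB23*, *WRKY22*, *PRK* and *RCA* were added after their values were seen. Alternatives were a replicate block, 2 scalings, a filter on dim probe sets, other moderation, array weights, other thresholds and leaving out each array. Figures were drawn with matplotlib 3.10.9. No sequences were used.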

Additional observations from a re-analysis of the deposited data

How the results depend on the processing

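AT5G48740 was called under each of 14 alternatives, with differences of 0.92 to 1.09. The count of members called was 1 in the fit reported and 2 with quantile normalization again, with eBayes trend and robust settings or with array weights, AT4G29990 being the addition. It was 3 at a threshold of 0.10, and 1 to 3 without single arrays, the 3 being without WT replicate 1. Among 93 alternative values of the 7 members described singly, 86 kept direction and side of the threshold and 7 gained a call. The median difference of members was -0.093 with arrays shifted to 1 median, 0.70 with the dimmest 40% left out, where 2 members remained, and -0.044 to 0.021 without single arrays. Over all probe sets 1125 were called at a threshold of 0.01 and 1699 to 2872 without single arrays. *CLE41* ran from 1.63 to 1.91 without single arrays. At 0.01 the further LRR-I loci had 0 calls, immune signalling 0, immune response genes 0 and CrRLK1L 1; with the dimmest 40% left out CrRLK1L had 2. Immune signalling had 3 calls, 2 higher and *PUB23* lower, under either other scaling, with array weights and at 0.10. Without single arrays the further LRR-I loci, immune signalling, immune response genes and CrRLK1L had 0 to 1, 0 to 2, 0 to 2 and 1 to 4 calls. Photosynthesis genes had 1 call without each array and 2 with array weights. *EXPA7* reversed with array weights (0.049) and ran from -0.17 to 0.12 without single arrays; *EXPA18* reversed likewise (0.0062; -0.081 to 0.043). The causes of these changes were not tested. Same-numbered samples deviated with correlations of -0.0102, 0.0805 and -0.0925, so the numbers are not taken to pair them; with the replicate block 2897 probe sets and 1 member were called. Signal over background was not measured here.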
